A study of Mus musculus with 6 samples.

Results

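The core of insulin signalling was examined here as 8 genes that lead from the insulin receptor to mTOR, chosen by gene name from the 21950 genes of the expression table: Insr, Irs1, Irs2, Pik3ca, Pik3r1, Akt1, Akt2 and Mtor. All 8 were found, each in a single row, and all 8 passed a filter that asked for 2 RPKM or more on average in 1 of the genotypes, as did 13118 genes in all. RPKM are reads scaled to the exonic length of a gene and to the number of reads in the library. The study overexpressed the forkhead transcription factor FOXC1 in the mammary gland and asked how this alters its development. The groups were FVB/NJ wildtype mice and FVB/NJ mice carrying a Myc-tagged human FOXC1 cDNA under the mouse mammary tumor virus (MMTV) promoter, with transgene protein in luminal and not in myoepithelial cells. All were 11 postnatal weeks old and at lactation day 2. The labels list 3 samples per genotype and name the source as epithelial cells, while the protocol took RNA from tissue slides, and the sources do not say which of the transgenic lines or how many animals were used.

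The 3 sample columns of a genotype could not be used as replicates. Read numbers recovered from the steps of the RPKM values differed between columns by little more than sampling noise (chi-square per degree of freedom 1.02 in wildtype over 5835 genes and 1.05 in transgenic mice over 7490 genes). Each genotype was therefore counted as 1 library (n = 1), the mean of its columns was used, and no p-value is given. The spread between columns and the 95% intervals below cover counting error and not variation between mice. The depth was 3492861 to 3496335 reads per wildtype column and 11770867 to 11774884 per transgenic column. The genotypes also differed in composition. Over 10 markers of secretory alveolar cells the summed level was 113300 to 113715 RPKM in the wildtype columns and 592 to 597 RPKM in the transgenic columns. Over 10 markers of luminal epithelium it was 144 to 155 RPKM in wildtype and 547.8 to 548.1 RPKM in transgenic columns. Each log2 change compares RPKM + 1 of transgenic with that of wildtype mice. The median change of all genes kept was 1.06, and a relative log2 change, after median-of-ratios size factors, brought it to 0.035. These factors moved the transgenic library down by 1.24 against the wildtype library, a shift split evenly over both before 1 RPKM was added. In bulk tissue, fewer cells of a type and less RNA per cell cannot be told apart. The mouse Foxc1 gene was at 2.37 RPKM in the wildtype and 9.07 RPKM in the transgenic library, which does not measure the human transgene as such.

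Insulin binds a receptor tyrosine kinase on the cell surface, which phosphorylates docking proteins of the IRS family. These recruit phosphoinositide 3-kinase (PI3K), whose lipid product brings the kinase Akt to the membrane, and Akt in turn relieves the brake on the kinase mTOR, which drives protein and lipid synthesis. In the mammary gland insulin is one of the hormones required for milk synthesis, and mice lacking Akt1 have impaired lactation.

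Levels in the wildtype gland were led by the PI3K regulatory subunit and by Akt1. On the scale of RPKM, Pik3r1 had the highest mean (70.0 RPKM), followed by Akt1 (67.1), Irs1 (28.4), Irs2 (19.4), Insr (12.2), Pik3ca (6.42), Akt2 (5.15) and Mtor (5.14). The columns of Akt1 and Pik3r1 overlapped, as did those of Akt2 and Mtor, and the other neighbours in this order did not. In transgenic mice the order was Pik3r1 (53.8 RPKM), Akt1 (40.2), Irs1 (32.7), Irs2 (30.1), Akt2 (28.0), Insr (26.0), Mtor (16.5) and Pik3ca (12.2), with no overlap between neighbours. Akt2 thus moved from the level of Mtor to between Irs2 and Insr. Levels compared between genes rest on the exonic lengths the authors used, which for Insr (9633 bases) and Irs2 (4024 bases) are shorter than in the reference annotation used here (13746 and 6323 bases).

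**Figure D1:**
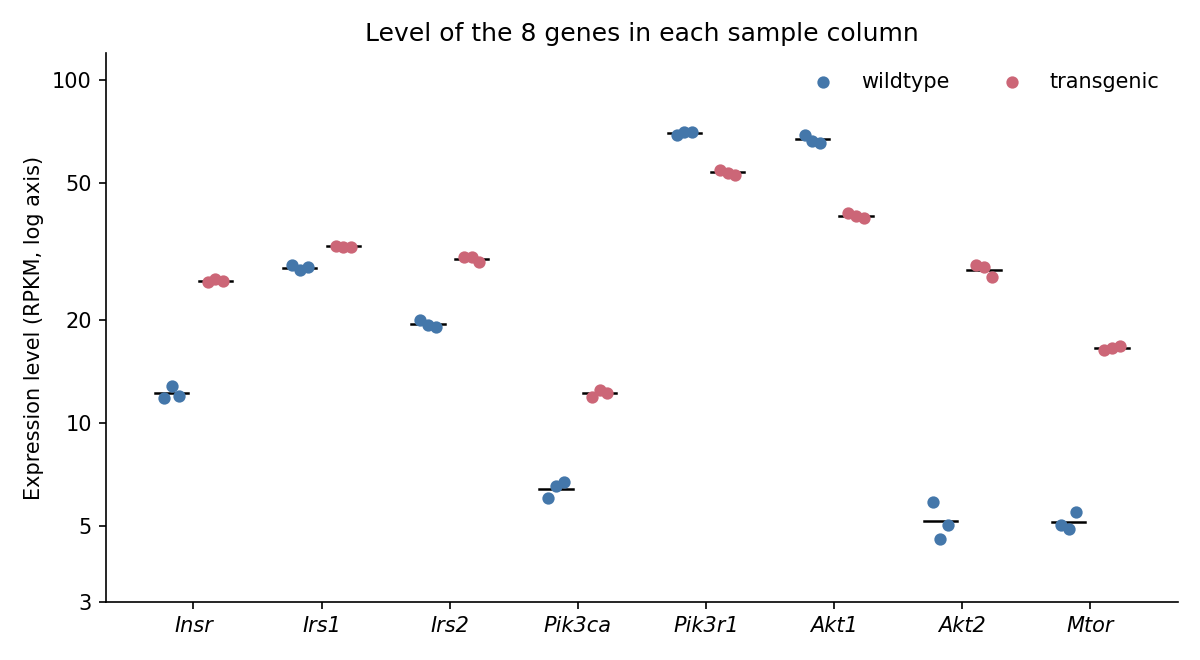
Expression level in RPKM (log axis) of the 8 genes in each of the 3 wildtype and 3 transgenic columns, with points for columns and short lines for their mean. Akt1 and Pik3r1 lie lower in the transgenic columns, the other 6 genes higher in RPKM (4 of these, Insr, Irs1, Irs2 and Pik3ca, are lower on the relative scale), and Akt2 shows the widest gap (5.15 and 28.0 RPKM).

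Akt2 was the one member past the size threshold, an absolute log2 change over 2, and it was higher. This makes 1 of 8 members higher, where 16.1% of all genes kept were higher, and 0 of 8 lower, where 1.23% were lower. On the relative scale 0 of 8 members were past the threshold in either direction, against 4.17% of genes higher and 3.66% lower. The median change of the members was 0.72, beside 1.06 for all genes kept, and their relative median was -0.43, beside 0.035. The sign of the change was positive for 6 members with library-size scaling and for 2 members, Akt2 and Mtor, on the relative scale. The directions of Insr, Irs1, Irs2 and Pik3ca thus differed between these 2 scalings. Under all 5 scalings tried Akt1 and Pik3r1 were lower and Akt2 was higher. Mtor was higher except with scaling to summed luminal epithelium markers (-0.17).

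**Figure D2:**
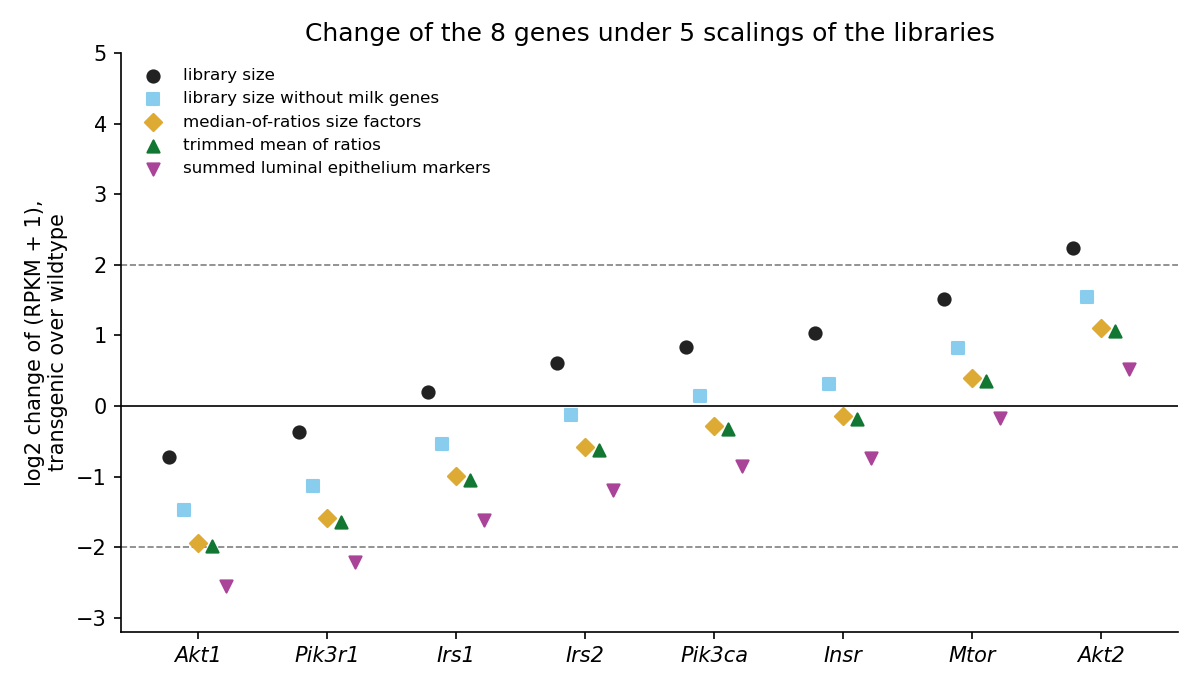
Log2 change of RPKM + 1, transgenic over wildtype, of the 8 genes under 5 scalings between the libraries, with dashed lines at the size threshold of 2. The order of the genes is the same under each scaling, Akt1 (-0.72 with library size) and Pik3r1 (-0.37) lie below 0 throughout, and Akt2 (2.24) lies above 0 throughout.

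Insr, the gene of the insulin receptor, had 11.8, 12.8 and 12.0 RPKM in the wildtype columns and 25.8, 26.2 and 26.0 RPKM in the transgenic columns. The transgenic columns all lay above the wildtype columns, and the level was 2.13 times the wildtype level with library-size scaling. The log2 change was 1.03, close to the median of all genes (percentile 48.7 among the genes kept), and the relative log2 change was -0.14. Its paralogue Igf1r, the receptor of insulin-like growth factor 1, was at 4.29 RPKM in the wildtype and 19.0 RPKM in the transgenic library. Within a library, where scaling plays no part, Insr was 2.84 times as high as Igf1r in wildtype and 1.37 times in transgenic mice. This ratio was 2.07 times as high in wildtype as in transgenic mice (95% exact conditional interval 1.77 to 2.43). The exonic length behind Igf1r (4489 bases) is far below that of the reference annotation used here (16791 bases), which bears on its level and not on the comparison of the libraries. Insr lies on chromosome 8 of GRCm38 from 3122061 to 3279617, on the minus strand.

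Irs1 and Irs2 encode the docking proteins that carry the signal from the receptor to PI3K. Irs1 had 28.8, 27.8 and 28.5 RPKM in wildtype and 32.9, 32.7 and 32.6 RPKM in transgenic columns. Irs2 had 19.99, 19.3 and 19.0 RPKM in wildtype and 30.5, 30.5 and 29.4 RPKM in transgenic columns. For both genes the transgenic columns lay above the wildtype columns without overlap. The log2 change was 0.20 for Irs1 and 0.61 for Irs2, both below the median of all genes, and the relative log2 changes were -0.998 and -0.58. Of the exonic bases of Irs1, 2822 (30.9%) are shared with Gm9747, a gene annotated on the other strand, and whether counting used the strand is not given in the sources used here. Gm9747 was at 34.2 RPKM in the wildtype and 20.4 RPKM in the transgenic library, so that with library-size scaling it was lower where Irs1 was higher, while both were lower on the relative scale. If reads over these bases were counted for both genes, the rest of Irs1 was at 25.8 RPKM in the wildtype and 38.2 RPKM in the transgenic library. Its log2 change would then be 0.55, or -0.65 on the relative scale. As counted, Irs1 made up 59.4% of the summed level of the pair in wildtype and 52.1% in transgenic mice, and the ratio of Irs1 to Irs2 was 1.35 times as high in wildtype (interval 1.24 to 1.47). The interval does not cover the overlap with Gm9747. Outside the shared bases Irs1 was at 25.8 and 38.2 RPKM, beside 19.4 and 30.1 RPKM for Irs2. The ratio of the pair would then differ much less between the libraries. Irs1 lies on chromosome 1 from 82233101 to 82291416 and Irs2 on chromosome 8 from 10984681 to 11008458, both on the minus strand.

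Pik3r1 encodes the p85-type subunit that docks PI3K to phosphorylated IRS proteins and holds the catalytic subunit stable, and Pik3ca encodes the catalytic subunit p110 alpha. Pik3r1 had 69.0, 70.5 and 70.6 RPKM in wildtype and 54.8, 53.7 and 53.0 RPKM in transgenic columns. All transgenic columns lay below the wildtype columns, and the wildtype level was 1.30 times the transgenic level. The log2 change was -0.37 and the relative log2 change -1.59, at percentile 5.93 of the relative changes of all genes kept. Pik3ca had 6.02, 6.55 and 6.71 RPKM in wildtype and 11.9, 12.5 and 12.2 RPKM in transgenic columns. Here the transgenic columns lay above the wildtype columns, and the log2 change was 0.83, or -0.28 on the relative scale. The transcripts of these subunits therefore changed by different amounts, and the ratio of Pik3r1 to Pik3ca was 10.9 in wildtype and 4.42 in transgenic mice, 2.47 times as high in wildtype (interval 2.256 to 2.703). Pik3r1 lies on chromosome 13 from 101680563 to 101768217 and Pik3ca on chromosome 3 from 32397671 to 32468486, and neither has exonic bases in common with another annotated gene.

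Of the other class I subunits, Pik3cd, Pik3cg and Pik3r2 were higher past the threshold with library-size scaling, as were 16.1% of all genes kept, and Pik3cb, Pik3r3, Pik3r5 and Pik3r6 were not past it. Pik3cd, the catalytic subunit p110 delta, which is enriched in leukocytes, had 58 reads and 0.884 RPKM in wildtype and 5789 reads and 26.2 RPKM in transgenic mice. Both the log2 change (3.85) and its relative value (2.94) were past the threshold. On the relative scale Pik3cg (1.76) and Pik3r2 (1.34) were within it, where 4.17% of all genes kept were higher. Among the 4 class I catalytic genes, Pik3ca held 60.3% of the summed RPKM in wildtype and 22.8% in transgenic mice, while Pik3cd held 8.29% and 49.0%. Pik3cb, which encodes p110 beta, held 28.0% and 15.9%, and Pik3cg, another leukocyte-enriched subunit, held 3.43% and 12.3%. The ratio of Pik3ca to Pik3cd was 15.6 times as high in wildtype as in transgenic mice (interval 11.9 to 20.9). Pik3r2, a second regulatory subunit, had 3.27 and 21.9 RPKM (log2 change 2.42, relative log2 change 1.34), so that the share of Pik3r1 among Pik3r1, Pik3r2 and Pik3r3 was 90.6% in wildtype and 65.6% in transgenic mice. Markers of leukocytes were also higher, as were those of most other cell types examined. Of the 8 genes that mark B cells, 7 were past the threshold, all higher, and the 8 summed to 7.67 to 9.88 RPKM in wildtype and 218 to 222 RPKM in transgenic columns, and none was at 0. Of the 9 genes that mark T cells, 8 were past it, all higher, with 11.2 to 12.8 RPKM and 252 to 266 RPKM, and of 8 macrophage markers, 7 of which passed the filter, 5 were higher and 0 lower, with 14.7 to 15.7 RPKM and 104 to 111 RPKM, again with none at 0. These marker counts hold for library-size scaling, where 16.1% of all genes kept were higher. After relative scaling 6 B cell, 7 T cell and 1 macrophage markers stayed higher past the threshold, and 0 were lower. Of all genes kept, 4.17% were then higher. The macrophage calls thus depended on the scaling more than those of B and T cells. The part of leukocytes in the levels of the PI3K genes was not tested.

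**Figure D3:**
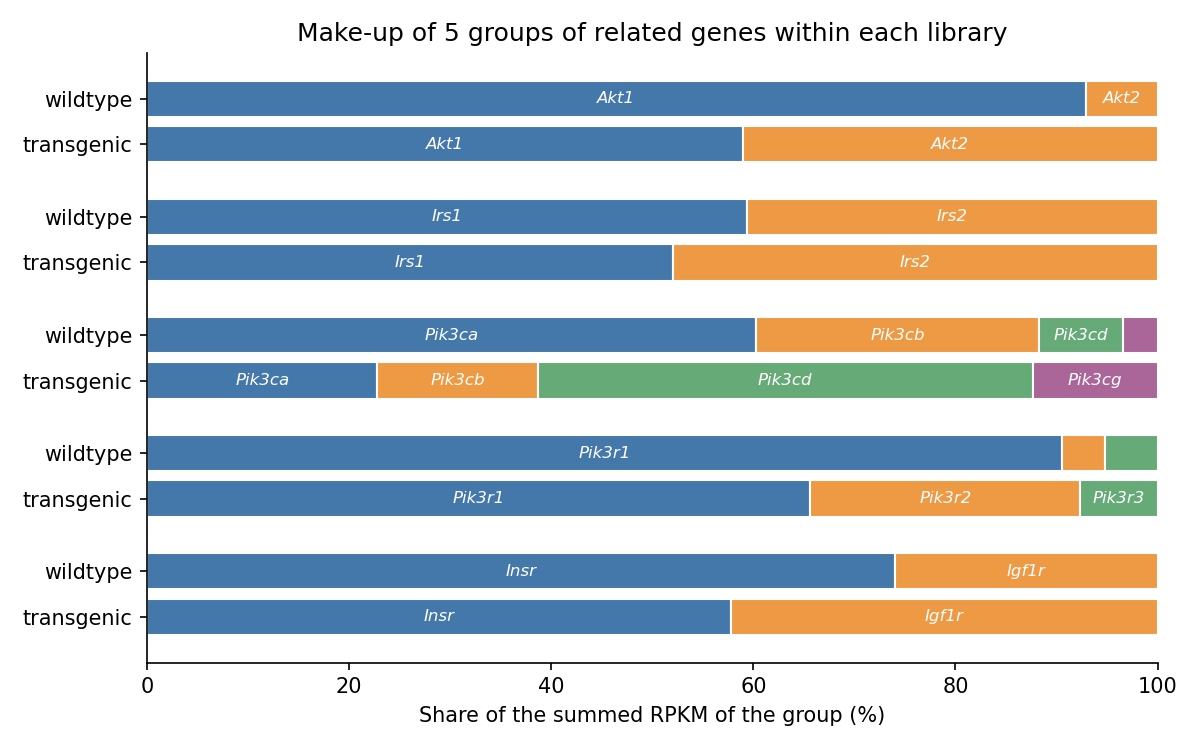
Share (%) of each gene in the summed RPKM of its group, for 5 groups of related genes in the wildtype and the transgenic library, with 1 bar per library. The share of Akt1 beside Akt2 is 92.9% in wildtype and 59.0% in transgenic mice, and Pik3cd takes 8.29% and 49.0% of the class I catalytic genes.

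Akt1 and Akt2 encode closely related kinases that PI3K activates. Akt1 is known for its role in growth, survival and milk synthesis, and Akt2 for the control of glucose uptake by insulin in fat and muscle. Akt1 had 69.1, 66.6 and 65.7 RPKM in wildtype and 40.9, 40.2 and 39.6 RPKM in transgenic columns. All transgenic columns lay below all wildtype columns, and the wildtype level was 1.67 times the transgenic level. The log2 ratio without a pseudocount was -0.74 (95% Clopper-Pearson interval -0.80 to -0.67, from 2865 and 5785 reads). The log2 change of -0.72 lay at percentile 4.66 of all genes kept, and the relative log2 change was -1.94, just inside the threshold.

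Akt2 had 5.86, 4.57 and 5.02 RPKM in wildtype and 28.8, 28.4 and 26.7 RPKM in transgenic columns. All transgenic columns lay far above the wildtype columns, and the level was 5.43 times the wildtype level. The log2 ratio without a pseudocount was 2.44 (interval 2.29 to 2.59, from 385 and 7043 reads), the log2 change was 2.24 and the relative log2 change was 1.11.

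The balance of the 2 kinase transcripts therefore differed between the libraries whatever the scaling. Akt1 was 13.03 times as high as Akt2 in wildtype and 1.44 times as high in transgenic mice. This ratio was 9.06 times as high in wildtype as in transgenic mice (95% exact conditional interval 8.09 to 10.2), with no mice to set it against. Akt1 made up 92.9% of the summed RPKM of Akt1 and Akt2 in wildtype (92.2% to 93.6% over columns) and 59.0% in transgenic mice (58.5% to 59.8%), and Akt2 the remaining 7.13% and 41.0%. Adipocyte markers, of a cell type that carries Akt2, were also higher. All 10 were higher past the threshold, 6 of them also on the relative scale, and they summed to 114 to 122 RPKM in wildtype and 1969.1 to 1991.9 RPKM in transgenic columns, and none was at 0. Of 8 fibroblast markers 7 were higher, 5 of them also after relative scaling, and 0 were lower. The 8 summed to 70.8 to 73.2 RPKM in wildtype and 1215 to 1217 RPKM in transgenic columns. Among all genes kept, 16.1% were higher past the threshold before relative scaling, and 4.17% after it. The part of any of these cell types in the balance of Akt1 and Akt2 was not tested.

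Since the 2 genes are paralogues, it was checked whether single reads of 50 bases could be placed on the wrong one. Their coding sequences (1443 bases for Akt1 and 1446 for Akt2) are 77.4% identical over 1440 aligned positions, and the longest identical stretch is 32 bases. Of 4182 different 50-base words in the Akt1 transcripts 0 occur in transcripts of another gene. Of 7350 words in the Akt2 transcripts 9.76% occur elsewhere, in the processed pseudogene Akt2-ps, and 0 occur in Akt1. The most similar 60 bases of the coding sequences, bases 982 to 1041 of Akt1 and 985 to 1044 of Akt2, show how close the pair is. They are the reference sequence of GENCODE, with the 3 positions that differ in capitals.
Akt1: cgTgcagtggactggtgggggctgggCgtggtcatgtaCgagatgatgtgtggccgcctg
Akt2: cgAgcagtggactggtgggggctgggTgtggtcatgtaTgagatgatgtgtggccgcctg

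Akt1 lies on chromosome 12 of GRCm38 from 112653821 to 112674884 on the minus strand, and Akt2 on chromosome 7 from 27591552 to 27640826 on the plus strand. For 7 of the 8 members (all but Insr) RefSeq promoter windows from 250 bases before to 50 bases after a start site were at hand, 12 windows in all (GRCm38.p6). They were searched on both strands for GTAAACA, a forkhead motif, since FOXC1 is a forkhead factor, and for TTCNNNGAA, the motif of STAT factors, which carry the prolactin signal. The forkhead letters occurred in 1 of the 12 windows and in 3.65% of all 32851 promoter windows of the mouse, and the STAT letters in 2 of the 12 and in 8.30% of all. The 3 windows with a match, of Akt1, Akt2 and Mtor, are printed, and the capitals mark the match. It begins 161 bases before the start site in Akt1 (chr12:112674835-112675134, minus strand, forkhead letters read on the opposite strand), 160 bases before it in Akt2 (chr7:27591302-27591601, plus strand, STAT letters) and 228 bases before it in Mtor (chr4:148448332-148448631, plus strand, STAT letters). The second window of Akt1, the other 3 windows of Akt2 and all windows of Irs1, Irs2, Pik3ca and Pik3r1 held neither motif. A match describes letters in a window and is no evidence of binding.
Akt1: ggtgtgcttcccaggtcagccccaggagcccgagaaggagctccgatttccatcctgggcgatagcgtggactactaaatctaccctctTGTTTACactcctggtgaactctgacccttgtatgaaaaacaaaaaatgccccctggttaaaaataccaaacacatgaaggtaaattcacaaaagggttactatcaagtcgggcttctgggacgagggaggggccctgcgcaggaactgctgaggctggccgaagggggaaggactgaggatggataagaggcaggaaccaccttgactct
Akt2: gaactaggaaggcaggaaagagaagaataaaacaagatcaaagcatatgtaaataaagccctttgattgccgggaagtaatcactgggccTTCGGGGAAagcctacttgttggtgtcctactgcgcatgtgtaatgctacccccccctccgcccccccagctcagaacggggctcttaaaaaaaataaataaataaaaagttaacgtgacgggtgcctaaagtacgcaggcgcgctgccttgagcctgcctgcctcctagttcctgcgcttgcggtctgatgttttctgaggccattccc
Mtor: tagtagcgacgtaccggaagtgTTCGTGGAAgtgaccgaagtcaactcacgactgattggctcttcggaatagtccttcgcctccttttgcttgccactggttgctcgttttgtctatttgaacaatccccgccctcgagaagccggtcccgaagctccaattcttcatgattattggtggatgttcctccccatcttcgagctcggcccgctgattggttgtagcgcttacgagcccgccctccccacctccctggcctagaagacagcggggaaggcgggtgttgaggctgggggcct

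Mtor encodes the kinase at the end of the route, which forms the complexes mTORC1 with raptor and mTORC2 with rictor. It had 5.04, 4.89 and 5.49 RPKM in wildtype and 16.3, 16.5 and 16.7 RPKM in transgenic columns. The transgenic columns lay well above the wildtype columns, at 3.21 times the wildtype level. The log2 change of 1.51 was below the threshold, at percentile 68.8 of all genes kept, and the relative log2 change was 0.40. Akt1 was lower and Mtor higher, except with luminal marker scaling, which put Mtor at -0.17. The ratio of Akt1 to Mtor was 13.1 in wildtype and 2.44 in transgenic mice, 5.36 times as high in wildtype (interval 4.85 to 5.92). Mtor lies on chromosome 4 from 148448611 to 148557683 on the plus strand, and none of its exonic bases overlap another annotated gene.

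Another 91 genes of the pathway were listed by role, of which 87 passed the RPKM filter. Of these 11 were higher and 1 lower past the threshold, where 16.1% and 1.23% of all genes kept were. After relative scaling the calls were 4 higher and 4 lower, where 4.17% and 3.66% of all genes kept were. The median of the 87 changes was 1.12, or 0.069 on the relative scale, both close to those of all genes. The 4 that were higher on the relative scale were Socs3, which binds and inhibits cytokine and insulin receptors (0.528 and 11.5 RPKM in wildtype and transgenic mice), Pik3ip1, an inhibitor of PI3K (0.670 and 12.5 RPKM), Pik3cd, and Inpp5d, a lipid phosphatase of blood cells (0.846 and 16.3 RPKM). The 4 that were lower were Prkaa2, Lpin1, Eef2k and Sgk2. Inpp5d and Pik3cd are known for leukocytes, whose markers are given above.

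The 3 genes with the lowest relative changes belonged to the energy sensor AMPK and to the targets of mTORC1. Prkaa2, a catalytic subunit of AMPK, was at 56.2 RPKM in the wildtype library (4699 reads) and at 3.50 RPKM in the transgenic library (984 reads). This is a log2 change of -3.67, or -4.74 on the relative scale. The other catalytic subunit, Prkaa1, was at 2.17 and 9.74 RPKM (log2 change 1.76, relative log2 change 0.76). Lpin1, a phosphatidate phosphatase of triglyceride synthesis that mTORC1 holds out of the nucleus, had 90.2 and 25.9 RPKM (relative log2 change -2.96), and Eef2k, the kinase that slows translation elongation, had 41.1 and 12.0 RPKM (-2.86). Of the 13 mTORC1 targets 0 were higher and 2 lower on the relative scale, where 4.17% and 3.66% of all genes kept were. Eif4ebp1, a repressor of translation that mTORC1 inactivates, had 15.2 and 45.2 RPKM with a relative log2 change of 0.33.

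Among the partners of mTOR all 12 genes kept lay within the threshold on both scales, from a relative log2 change of -1.73 for Rheb, the GTPase that activates mTORC1 (17.2 and 11.1 RPKM), to 0.40 for Mtor itself. Rptor, which encodes raptor, lay next to Mtor with 3.92 and 11.8 RPKM (0.31). Of the 13 Akt substrates kept, 0 were past the threshold on either scale. With library-size scaling 16.1% of all genes kept were higher and 1.23% lower, and on the relative scale 4.17% and 3.66%. The ends of the substrates were Pfkfb2, a regulator of glycolysis (12.1 and 7.52 RPKM, relative log2 change -1.73), and Tbc1d1, a regulator of glucose transporter traffic (2.18 and 11.4 RPKM, 0.96). Its relative Tbc1d4 had 18.50 and 16.97 RPKM (-1.29). Of the 7 phosphatases kept, Inpp5k, which acts on phosphoinositides, had the lowest relative change, with 20.7 and 19.8 RPKM (log2 change -0.06, relative log2 change -1.23).

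Of the docking proteins other than Irs1 and Irs2, Gab1 (4.95 and 32.2 RPKM), Sh2b1 (6.75 and 32.2 RPKM) and Sh2b2 (0.918 and 10.6 RPKM) were higher past the threshold with library-size scaling, as were 16.1% of all genes kept. None of the docking genes was on the relative scale. Irs4 was listed at 0 in wildtype, had 2 reads in transgenic mice and did not pass the filter. Irs1 and Irs2 had the lowest relative changes of the 7 docking genes kept. By relative log2 change over the 2 libraries, the gene nearest to Akt1 was Sgk2 (2.47 and 0.288 RPKM, relative log2 change -2.01), at a difference of 0.078, followed by the GTPase gene Rraga (-1.83). The likeness of Sgk2 depends on the pseudocount, since without it the relative log2 ratio was -4.34 for Sgk2 (interval -4.96 to -3.74), -1.98 for Akt1 and -1.96 for Rraga. The genes nearest to Akt2 were Pik3r6 (1.08) and Tbc1d1 (0.96). Pik3r6 rests on 7 wildtype reads, and without the pseudocount its relative log2 ratio was 2.59 (interval 1.53 to 3.92), beside 1.204 for Akt2 and 1.154 for Tbc1d1. The nearest to Pik3r1 were Prr5 (-1.50) and Deptor (-1.48), and to Mtor Tsc1 and Sesn3 (0.34 for both). Insr lay nearest to Rragc (-0.14) and Foxo1 (-0.13), Irs2 to Gsk3b (-0.58) and Ddit4 (-0.56), and Pik3ca to Shc1 (-0.27) and Foxo3 (-0.25). Irs1 lay nearest to Rragd (-0.91) and Pdpk1 (-0.86), and without the pseudocount the relative log2 ratio of Rragd was -1.40, beside -1.03 for Irs1. With 2 libraries this likeness is a difference between 2 numbers and no more.

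**Figure D4:**
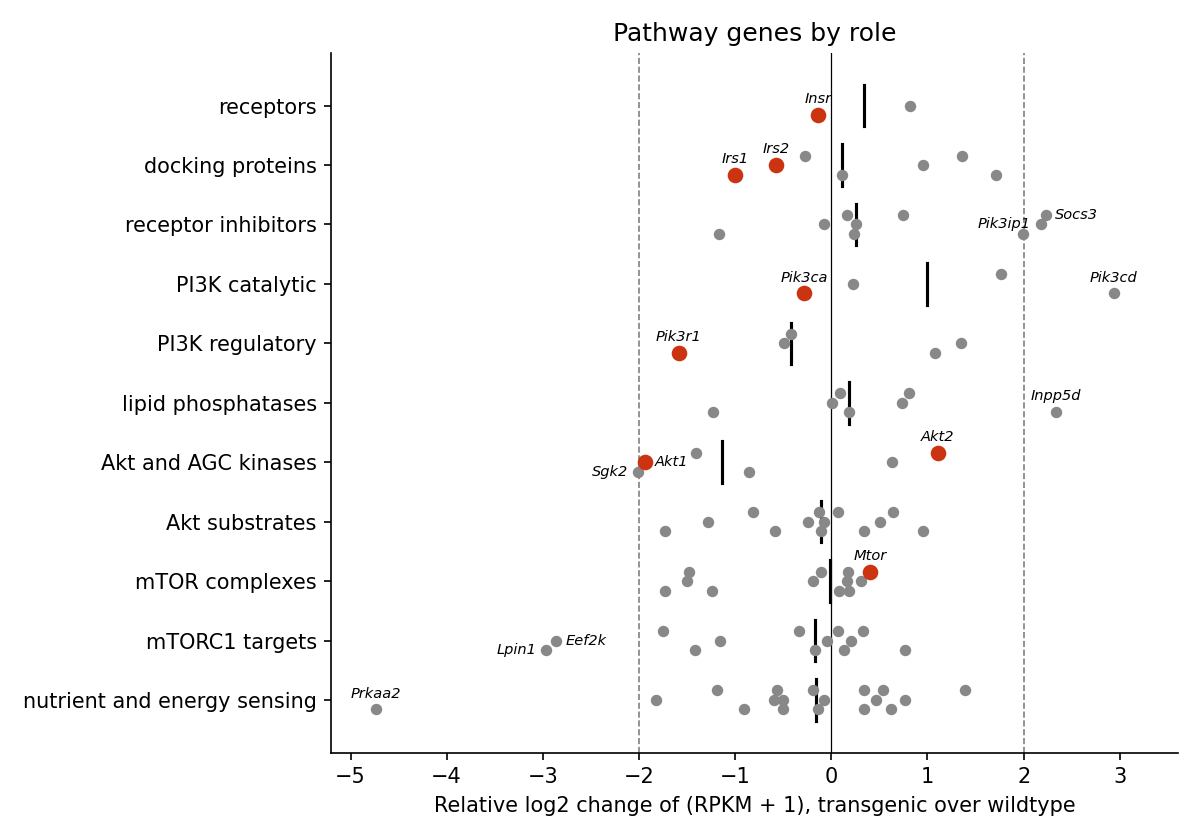
Relative log2 change of RPKM + 1, transgenic over wildtype, of the 95 pathway genes kept (Akt1s1 is shown in 2 roles), by role, with the 8 members in red, other genes in grey and the median of each role as a black bar. Prkaa2 (-4.74) and Pik3cd (2.94) are the ends of the plot, and all members lie within the dashed lines at the threshold of 2.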

How the data were processed

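RNA from tissue slides was depleted of ribosomal RNA and sequenced as single reads of 50 bases. The authors aligned reads to GRCm38 with TopHat2 (2.0.7, per the submitters' processing notes) and deposited RPKM estimated with SAMMate from Ensembl gene models, without a factor for composition. Further columns give the authors' means, log2 fold change and fold change (ratio), which were not used. The labels give 3 samples per genotype, and all 6 columns were used.

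Depth and read numbers were recovered from the steps of the RPKM values, whole within 1e-05 reads for all 18308 genes above 0 (8699 at the exonic length of GENCODE M21, the others at the shortest fitting length up to 120000 bases). The recovery and the rule of size were tested on simulated data. The authors compared the genotypes with DESeq2. Since each genotype was counted as 1 library here, no such test was run, and genes were called by size alone: the log2 change of RPKM + 1 had to be above 2 or below -2, and 1 genotype had to average 2 RPKM or more. Size factors came from 12677 genes with reads in all columns. Other scalings were a trimmed mean of ratios (30% of ratios and 5% of levels trimmed at each end), library size without milk genes, and luminal markers. Other pseudocounts, filters and thresholds and leaving out each column were also tried. Intervals are Clopper-Pearson for a ratio of libraries and exact conditional for a ratio of genes, and cover counting error only.

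The text names all members, the 2 nearest genes of each by relative change, and genes drawn from the rule of up to 2 at each end of each of 11 role lists, not all of which are described. Genes outside this rule, such as Sh2b1 and Pik3r5, were named after their values were seen. Of the genes listed, 2 are not reported here and entered no count, share or median of the lists. Members, lists, markers and motifs were chosen with earlier results of these data known. Gene coordinates and shared bases are from GENCODE M21 and promoters from RefSeq. Python 3.11.15, NumPy 2.4.6, pandas 2.3.3, SciPy 1.17.1, Biopython 1.88 and matplotlib 3.10.9 were used.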

Additional observations from a re-analysis of the deposited data

How the results depend on the processing

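With 1 library per genotype, none of these settings stands in for variation between mice. The count of members higher past the threshold was 1 with library-size scaling, and 0 with median-of-ratios size factors, the trimmed mean of ratios, library size without milk genes or luminal epithelium markers, and 3 at a log2 change above 1. The count lower was 0, and 2 (Akt1 and Pik3r1) with luminal epithelium markers. Of the other pathway genes 11 were higher and 1 lower. These counts were 20 and 2 with a pseudocount of 0.1, 4 and 4 with size factors and with the trimmed mean, 7 and 3 without milk genes, 1 and 11 with luminal markers, and 49 and 4 at a log2 change above 1. Both pseudocounts and leaving out any column kept the sign of all 8 members. Without milk genes Irs1 (-0.54) and Irs2 (-0.13) were lower and Insr (0.31) and Pik3ca (0.14) higher, and with luminal markers Akt2 alone was higher (0.53) and Mtor was at -0.17. The Irs1 value without the bases of Gm9747 (0.55) was chosen after seeing the data. With reads not divided by length, shares in wildtype and transgenic mice were 88.2% and 45.1% for Akt1, 76.9% and 71.2% for Irs1, 66.4% and 29.1% for Pik3ca, 95.5% and 82.4% for Pik3r1, and 85.9% and 74.6% for Insr, so that each stayed higher in wildtype mice. For Irs1 this setting keeps the bases shared with Gm9747, and its share without them was not computed. No paired analysis was possible because the columns of a genotype were counted as 1 library and no result comes from a test. Wildtype depth limits Akt2 and Mtor most among the members, at 385 and 545 reads, and other genes named rest on fewer, such as Pik3r6 (7), Socs3 (16), Pik3cg (26), Pik3ip1 (30) and Pik3cd (58).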
